A study of Mus musculus with 9 samples.

Results

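The 42 genes described here encode non-collagen proteins of cartilage and dermal extracellular matrix, and they were followed in RNA sequencing of mouse ear epidermis. They were chosen by name, as the rows of the deposited count table whose symbol was one of 42 listed symbols, and all 42 were found once among the 52550 genes of the table. Total RNA came from intact epidermal sheets of the ears of wild-type male C57BL/6 mice (C57BL/6J in the methods) aged 8 weeks, with 3 libraries in each of 3 groups. The control group (VAS + H2O) received Vaseline on the ears and water by gavage. The model group (IMQ + H2O) received imiquimod cream, an agonist of Toll-like receptor 7 that evokes psoriasis-like dermatitis, and water by gavage. The XYF group (IMQ + XYF) received the same cream and Xiao-Yin-Fang, a decoction of medicinal herbs, at 23.3 mg/g. Gavage of 200 µl was given for 10 days and the topical treatment on 5 days in all groups. The sources name a pair of mice for the ear sheets without saying whether that is per library, so the spread between libraries may be partly technical. Library totals lay between 30298275 and 64771160 counts. Levels are given as CPM (counts scaled to the library size after TMM normalization), in the order of replicates 1, 2 and 3.

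Cartilage matrix is built from aggrecan, a large proteoglycan that binds hyaluronan through link protein, and from glycoproteins that bridge collagen fibrils, such as COMP, the matrilins and chondroadherin. Small leucine-rich proteoglycans, among them decorin, biglycan and fibromodulin, bind collagen and set the spacing and width of its fibrils. Elastic fibres consist of an elastin core on a scaffold of fibrillin microfibrils, with fibulins at their surface. Thrombospondins, tenascins, periostin and SPARC are matricellular proteins, which modulate the contact of cells with matrix more than they build it. The mouse ear contains a plate of elastic cartilage between its skin layers, and dermal fibroblasts make most of the other proteins listed. Keratinocytes are the main cells of the epidermis and are known to secrete some matrix proteins, such as thrombospondin 1 and tenascin C.

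Promoter sequences were printed for 4 genes whose level fell under imiquimod (Acan, Chad, Ogn and Aspn) and for 2 with a higher level in an imiquimod group (Postn and Fbln1), so that the start regions of genes moving in opposite directions can be read side by side. Each line holds the 250 bases before the RefSeq start of the gene on its own strand, 5′ to 3′, on GRCm38.p6. Of the 42 genes, 29 had 1 or more such windows, 34 in all. The stretches were chr7:79052976-79053225 for Acan, chr11:94564797-94565046 for Chad, chr13:49607765-49608014 for Ogn, chr13:49544193-49544442 for Aspn, chr3:54360857-54361106 for Postn and chr15:85205699-85205948 for Fbln1, all on the plus strand. Capitals mark matches on either strand to TATAAA, which the general factor TBP binds, AACAAT, which SOX factors bind, or GGGCGG, which Sp1 binds. Adjoining or overlapping matches run together. TGANTCA, which AP-1 binds, was counted over whole windows only, and of these genes Tnxb and Ucma held it.
Acan: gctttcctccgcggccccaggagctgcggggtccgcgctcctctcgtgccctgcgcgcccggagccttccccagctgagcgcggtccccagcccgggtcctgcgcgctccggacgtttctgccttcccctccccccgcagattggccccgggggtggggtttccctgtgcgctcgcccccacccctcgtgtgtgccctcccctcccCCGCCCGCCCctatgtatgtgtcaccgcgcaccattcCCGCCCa
Chad: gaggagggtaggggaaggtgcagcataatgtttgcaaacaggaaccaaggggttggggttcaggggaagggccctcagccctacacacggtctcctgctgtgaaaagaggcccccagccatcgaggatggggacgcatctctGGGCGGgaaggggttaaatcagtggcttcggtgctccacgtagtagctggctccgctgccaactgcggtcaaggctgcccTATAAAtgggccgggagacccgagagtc
Ogn: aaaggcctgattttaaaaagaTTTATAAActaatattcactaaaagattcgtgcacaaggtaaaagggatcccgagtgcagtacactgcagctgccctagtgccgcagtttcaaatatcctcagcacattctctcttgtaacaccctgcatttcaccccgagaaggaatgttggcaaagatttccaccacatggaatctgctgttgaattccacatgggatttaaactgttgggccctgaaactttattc
Aspn: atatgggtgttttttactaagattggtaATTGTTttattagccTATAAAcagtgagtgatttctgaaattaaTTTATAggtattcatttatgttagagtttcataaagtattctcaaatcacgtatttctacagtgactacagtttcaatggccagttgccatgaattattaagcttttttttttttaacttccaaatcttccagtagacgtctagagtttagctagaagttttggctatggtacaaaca
Postn: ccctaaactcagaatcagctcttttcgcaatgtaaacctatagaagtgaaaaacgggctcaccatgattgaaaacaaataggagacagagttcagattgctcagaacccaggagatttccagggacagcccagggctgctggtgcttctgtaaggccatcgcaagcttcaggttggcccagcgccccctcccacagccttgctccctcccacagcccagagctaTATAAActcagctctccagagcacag
Fbln1: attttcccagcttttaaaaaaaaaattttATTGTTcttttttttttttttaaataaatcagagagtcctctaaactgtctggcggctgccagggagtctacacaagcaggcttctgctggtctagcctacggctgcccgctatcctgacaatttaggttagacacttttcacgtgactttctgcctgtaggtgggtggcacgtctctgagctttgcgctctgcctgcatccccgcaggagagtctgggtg

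A TATAAA began 28 bases before the start of Chad and 26 bases before that of Postn, while the Acan stretch held only GGGCGG, read on the other strand. Over windows of 250 bases before to 50 bases after the start, TATAAA occurred in 7 of the 34 windows of these genes and in 13.6% of all 32851 windows. AACAAT occurred in 7 of the 34 and in 10.7% of all windows. GGGCGG occurred in 17 of the 34 and in 35.7% of all windows, and TGANTCA in 2 of the 34 and in 7.81% of all. TATAAA was thus present before Chad, which fell in IMQ + H2O, and before Postn, which did not. Several of the genes also lie next to one another with no coding gene between them. They are Hapln1 and Vcan on chromosome 13 (43.7 kb apart), Prelp and Fmod on chromosome 1 (115.8 kb apart), Dcn and Lum on chromosome 10 (47.0 kb), and the run of Aspn, Omd and Ogn on chromosome 13 (14.9 and 15.2 kb).

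Keratinocyte markers had the highest sums in every library, as the labelled tissue implies. The summed level of 12 keratinocyte markers, which include Krt5 and Krt14, was 53578 to 67674 CPM in VAS + H2O, 65998 to 78052 in IMQ + H2O and 66515 to 72369 in IMQ + XYF. Markers of other tissue were detected at lower levels. The 12 chondrocyte markers found in the table, summed to 522 to 769 CPM in VAS + H2O, 375 to 430.4 in IMQ + H2O and 432 to 488 in IMQ + XYF. A large part of these sums was Fgfr3, a growth factor receptor that other cells also carry, at 244 to 284 CPM in VAS + H2O and 245 to 284 in IMQ + H2O. The cartilage collagen Col2a1, in contrast, had 4.49, 18.9 and 9.24 CPM in VAS + H2O and 1.28, 0.416 and 0.278 in IMQ + H2O. The 13 fibroblast markers, among which Col1a2, Col3a1 and Col6a3 had the highest means in VAS + H2O, summed to 102 to 518, 49.4 to 56.0 and 88.8 to 169.5 CPM in the same order. None of the markers of these 3 lists was at 0 in all 9 libraries. In IMQ + H2O against VAS + H2O, 4.04% of all genes tested were called lower. Of the chondrocyte markers, 8 of 12 tested fell in that comparison, with the smallest adjusted p-values for Col11a2 (log2 fold change -2.92), Col9a3 (-2.62) and Col9a1 (-3.39, and -2.73 without VAS + H2O replicate 2). Of the fibroblast markers, 4 of 13 fell, which were Col6a3 (-2.47), Col1a2 (-2.57), Col5a1 (-3.04) and Pdgfrb (-2.31). Without VAS + H2O replicate 2, 7 chondrocyte markers and 3 fibroblast markers were called, and the fibroblast values were -1.81, -1.39, -1.47 and -1.29, with Pdgfrb no longer called (edgeR adjusted p = 0.0862). These collagens and receptors are products of chondrocytes and fibroblasts, and none is a member of the 42 genes. With bulk RNA, fewer cells of a type in a sheet and less RNA per cell cannot be told apart, and the part of carried-over cartilage or dermis in the results that follow was not tested.

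VAS + H2O replicate 2 stood apart from the other control libraries in these genes. Of the 41 genes with a count in the controls, 34 had their highest control level in replicate 2 (82.9%), against 30.1% of the 18492 genes that passed the count filter over 9 libraries. The ratio of its CPM to the mean of replicates 1 and 3 had a median of 2.71 over the genes described here. It was 50.9 for Thbs4, 23.8 for Mfap4, 17.4 for Cilp and 10.3 for Dcn, but 2.09 for Acan, 1.97 for Chad and 1.55 for Cytl1. The same library had the highest sums of fibroblast markers (518 CPM against 102 and 123) and of skeletal muscle markers (312 CPM against 7.28 and 9.52). Among the controls it was also highest for chondrocyte (769 CPM against 565 and 522), smooth muscle and pericyte, endothelial, adipocyte, Schwann cell and melanocyte sums. It was the lowest control for keratinocyte, for neutrophil and monocyte, and for Langerhans cell and T cell sums, and lay between the others for tenocyte markers. The count of calls without this library is given below, as is each called value whose fold it moved by over 1.5 times.

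**Figure D1:**
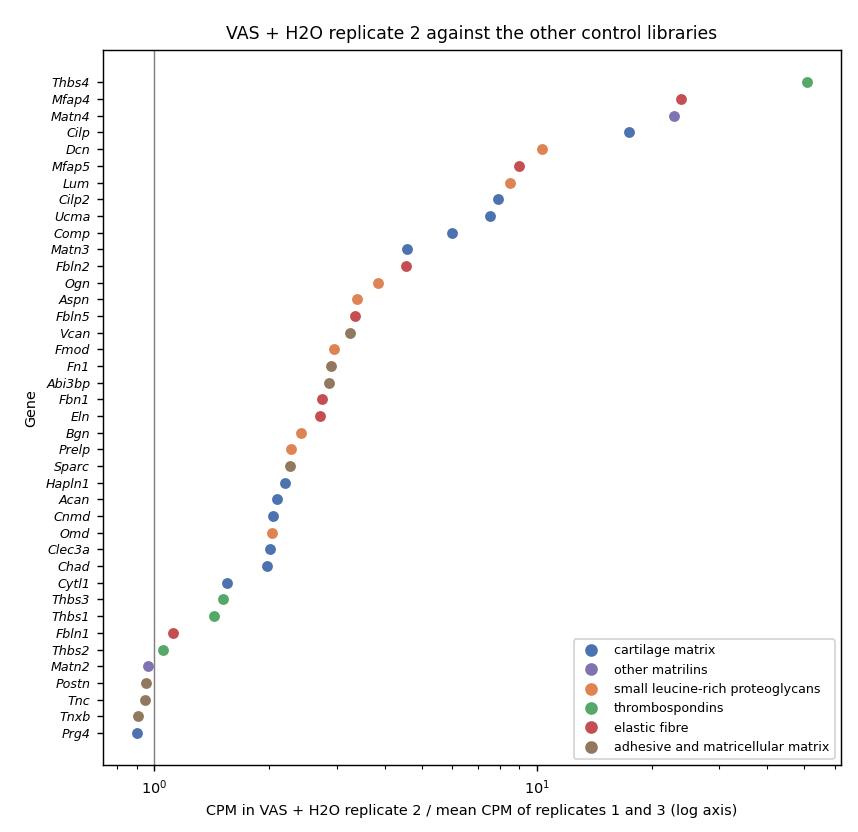
Ratio of the CPM in VAS + H2O replicate 2 to the mean CPM of replicates 1 and 3 for the matrix genes with a count in replicate 2, on a log axis, coloured by the role of the gene. Most points lie to the right of 1, from 50.9 for Thbs4 down to values near or below 1 for Matn2, Postn, Tnc, Tnxb and Prg4.

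The first comparison, IMQ + H2O against VAS + H2O, measured what the imiquimod cream changed. Most cartilage, proteoglycan and elastic fibre genes were lower in the model group, several of them by 4-fold or more, while fibulin 1 was higher. Of the 42 genes, 36 passed the filter on low counts and were tested, 21 fell, 1 rose (Fbln1) and 14 did not pass the test (edgeR quasi-likelihood test, Benjamini-Hochberg adjusted p at most 0.05 over all genes and absolute log2 fold change at least 1). Over all 18009 genes tested, 7.68% were called, 4.04% lower and 3.64% higher. The median log2 fold change of the 36 was -2.20, against -0.03 over all genes tested. In 25 of the 36 all IMQ + H2O libraries lay below all VAS + H2O libraries, which 21.6% of all genes tested showed, and in 2 (Fbln1 and Postn) they lay above, which 23.4% showed. A gene of low count can pass the filter through the group in which it is high, so these counts describe the genes and were not tested as a set. DESeq2 called 25 lower, Matn3 among them, and 2 higher (Fbln1 and Tnc), against a background of 8.66%.

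How many of these calls were made depended on single libraries. Without VAS + H2O replicate 2, 14 genes fell and Fbln1 rose, and the median was -1.23. Those that fell were 5 cartilage genes, 3 leucine-rich proteoglycans, 1 thrombospondin, 2 elastic fibre genes and 3 adhesive or matricellular genes. Without IMQ + H2O replicate 2 the count of calls was 11 and without IMQ + H2O replicate 3 it was 9. When the 6 libraries were left out in turn, 8 genes kept their call each time. They were Chad, Hapln1, Clec3a, Fmod, Bgn, Thbs3, Eln and Sparc, and all 8 fell. Lum, Prg4 and Tnc gained a call without VAS + H2O replicate 1, VAS + H2O replicate 3 and IMQ + H2O replicate 1, respectively. Matn3, which was too low for the test with all 6 libraries, was also called lower without VAS + H2O replicate 3 (edgeR adjusted p = 0.0402).

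**Figure D2:**
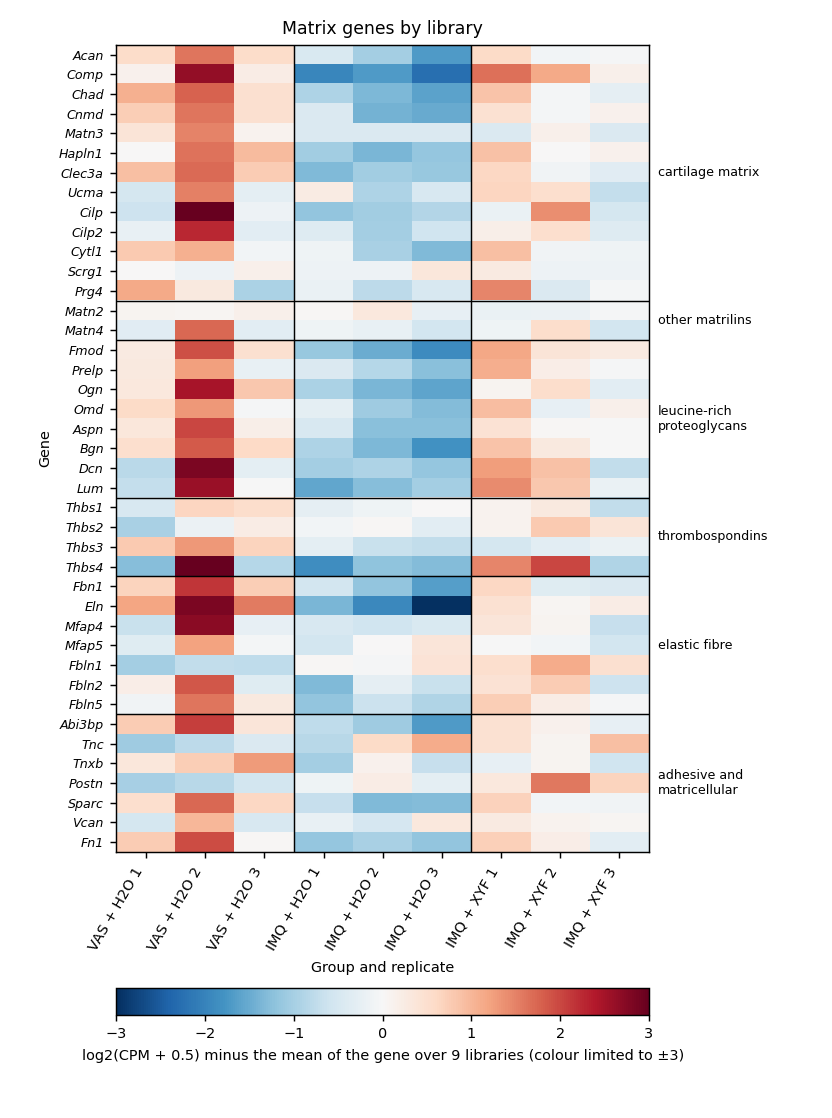
Level of 41 matrix genes in the 9 libraries, as log2(CPM + 0.5) minus the mean of the gene over all libraries, with genes ordered by role and libraries by group. Blue cells (below the mean of the gene) prevail in the 3 IMQ + H2O columns for cartilage, proteoglycan and elastic fibre genes, VAS + H2O replicate 2 is the reddest column, and Fbln1, Tnc and Postn run the other way.

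Among the 14 cartilage matrix genes, 11 were tested and 7 fell in IMQ + H2O against VAS + H2O, with a median log2 fold change of -2.32. Acan (chromosome 7, 79053483 to 79115099) encodes aggrecan, the proteoglycan that gives cartilage its resistance to compression. It had 133, 278 and 132 CPM in VAS + H2O, 65.4, 44.4 and 27.6 in IMQ + H2O and 135, 86.1 and 89.1 in IMQ + XYF. Every IMQ + H2O library was below every library of the other groups. The fall was 4.01-fold (log2 fold change -2.00, standard error 0.41, edgeR adjusted p = 0.0192), and the call was lost without IMQ + H2O replicate 2 (edgeR adjusted p = 0.0550). Chad (chromosome 11, 94565047 to 94569127) encodes chondroadherin, a leucine-rich protein through which chondrocytes attach to collagen. Its levels were 125, 206 and 84.0 CPM in VAS + H2O, 31.2, 23.0 and 19.3 in IMQ + H2O and 109, 57.7 and 49.8 in IMQ + XYF. The model group again lay below both others without overlap. Chad fell 5.72-fold (log2 fold change -2.52, standard error 0.36, edgeR adjusted p = 0.00881), with log2 fold changes from -2.74 to -2.10 when each library was left out.

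Cytl1, a small secreted protein made by chondrocytes, had the highest level per length of the 42 genes, at 208 CPM per kb of exon over the 9 libraries. It had 333, 399 and 182 CPM in VAS + H2O, 175, 98.2 and 75.8 in IMQ + H2O and 358, 178 and 176 in IMQ + XYF. The highest model library was close under the lowest control. Cytl1 fell 2.66-fold (log2 fold change -1.41, standard error 0.39, edgeR adjusted p = 0.0429), and leaving out VAS + H2O replicate 1 or 2, or IMQ + H2O replicate 2 or 3, ended the call. Comp (chromosome 8, 70373558 to 70382066), the pentameric thrombospondin of cartilage and tendon, had 4.40, 27.6 and 4.79 CPM in VAS + H2O, 0.657, 0.884 and 0.440 in IMQ + H2O and 13.6, 9.35 and 4.47 in IMQ + XYF. All IMQ + H2O libraries were under 1 CPM, and VAS + H2O replicate 2 was far above its group. Comp fell 18.8-fold (log2 fold change -4.23, standard error 0.86, edgeR adjusted p = 0.0188), with -2.80 without VAS + H2O replicate 2, and lost the call without IMQ + H2O replicate 1 or 3.

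Clec3a, a lectin of cartilage, had 2.5, 4.74 and 2.21 CPM in VAS + H2O, 0.138, 0.286 and 0.232 in IMQ + H2O and 1.96, 0.987 and 0.770 in IMQ + XYF. Its IMQ + H2O values rest on 4, 11 and 10 counts. The fall was 14.1-fold (log2 fold change -3.82, standard error 0.45, edgeR adjusted p = 0.00646), the smallest adjusted p among the 42 genes in this comparison. Prg4, the lubricin of joint surfaces, differed from these genes in that its groups overlapped. It had 26.2, 14.4 and 5.82 CPM in VAS + H2O, 9.99, 6.48 and 8.24 in IMQ + H2O and 32.9, 8.48 and 11.2 in IMQ + XYF, and did not pass (log2 fold change -0.93, edgeR adjusted p = 0.216). Hapln1, the link protein that ties aggrecan to hyaluronan, fell 5.64-fold, and Cnmd, the anti-angiogenic chondromodulin of cartilage, fell 4.70-fold, a call lost without VAS + H2O replicate 2 or IMQ + H2O replicate 2 or 3. Cilp and Cilp2, proteins of the cartilage intermediate layer, and Ucma, a protein of growth plate and surface cartilage, had log2 fold changes of -3.81, -2.32 and -1.46 and did not pass. All 3 were highest in VAS + H2O replicate 2, and without it the values were -1.11, -0.59 and 0.21, so that Ucma turned direction.

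The remaining cartilage genes had too few counts for the test. Matn3, a matrilin of cartilage, had 18, 46 and 8 counts in VAS + H2O and none in IMQ + H2O, at least 7.99-fold lower when 3 counts per library are taken as the floor, and at least 3.64-fold without VAS + H2O replicate 2. Scrg1, a secreted protein of chondrocytes, had between 0 and 11 counts per library in all groups. Matn1, another matrilin of cartilage, had no count in any of the 9 libraries, which allows up to 3 counts in each. Matn2 and Matn4 are matrilins that are made outside cartilage too. Matn2 had 26.8, 26.4 and 28.1 CPM in VAS + H2O, 26.0, 31.9 and 21.1 in IMQ + H2O and 21.9, 22.2 and 24.9 in IMQ + XYF. The controls and the model group overlapped and the log2 fold change was -0.06 (standard error 0.15, edgeR adjusted p = 0.809). Matn4 had 0.0846, 1.94 and 0.0860 CPM in VAS + H2O, 0.173, 0.130 and 0 in IMQ + H2O and 0.173, 0.555 and 0 in IMQ + XYF, and was too low for the edgeR test. DESeq2 fitted a log2 fold change of -2.85 for it (DESeq2 adjusted p = 0.143).

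All 8 small leucine-rich proteoglycans were tested, 6 fell in IMQ + H2O against VAS + H2O, and their median log2 fold change was -2.53. In each of the 8 the model libraries lay below the control libraries without overlap. Bgn encodes biglycan, which carries chondroitin or dermatan sulfate chains. It had 129, 322 and 137 CPM in VAS + H2O, 47.2, 35.1 and 25.4 in IMQ + H2O and 164, 111 and 90 in IMQ + XYF. The model libraries stayed below all 6 others, and Bgn fell 5.53-fold (log2 fold change -2.47, standard error 0.42, edgeR adjusted p = 0.0125). Fmod, the keratan sulfate proteoglycan fibromodulin, had 47.9, 153 and 55.9 CPM in VAS + H2O, 17.8, 13.9 and 10.3 in IMQ + H2O and 89.1, 52.2 and 47.7 in IMQ + XYF. It fell 6.21-fold (log2 fold change -2.63, standard error 0.49, edgeR adjusted p = 0.0152), with -1.90 without VAS + H2O replicate 2. Both genes were called in every fit that left out a library.

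Dcn, decorin, the most abundant proteoglycan of dermis, had 23.2, 291 and 33.2 CPM in VAS + H2O, 19.9, 21.1 and 17.8 in IMQ + H2O and 98.0, 75.8 and 24.1 in IMQ + XYF. Controls and model group did not overlap, but 2 of the 3 control libraries were close to the model group and replicate 2 had 10.3 times the mean of these. Dcn had a log2 fold change of -2.59 (standard error 0.95, edgeR adjusted p = 0.0952), and -0.53 without VAS + H2O replicate 2. Its neighbour Lum, lumican, likewise did not pass, at -2.99 (edgeR adjusted p = 0.0630) and -1.16 without that library. Prelp, a proteoglycan that anchors basement membrane to connective tissue, had 54.7, 106 and 38.1 CPM in VAS + H2O, 32.9, 24.3 and 18.4 in IMQ + H2O and 95.8, 51.3 and 43.6 in IMQ + XYF. Prelp fell 2.66-fold (log2 fold change -1.41, standard error 0.40, edgeR adjusted p = 0.0459), and this call held only without VAS + H2O replicate 3 among the fits that left out a library. Ogn, osteoglycin, had 5.69, 26.8 and 8.23 CPM in VAS + H2O, 2.07, 1.40 and 1.16 in IMQ + H2O and 4.71, 6.66 and 3.48 in IMQ + XYF. It fell 8.96-fold (log2 fold change -3.16, standard error 0.64, edgeR adjusted p = 0.0185), which was 4.54-fold (-2.18) without VAS + H2O replicate 2, and lost the call without IMQ + H2O replicate 2 or 3. Its neighbours Omd, osteomodulin, and Aspn, asporin, fell 3.04-fold and 4.43-fold. Omd lost the call without VAS + H2O replicate 1 or 2 or IMQ + H2O replicate 2 or 3, and Aspn kept it only without VAS + H2O replicate 3. Without VAS + H2O replicate 2, Aspn had a log2 fold change of -1.29, against -2.15 with all libraries.

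**Figure D3:**
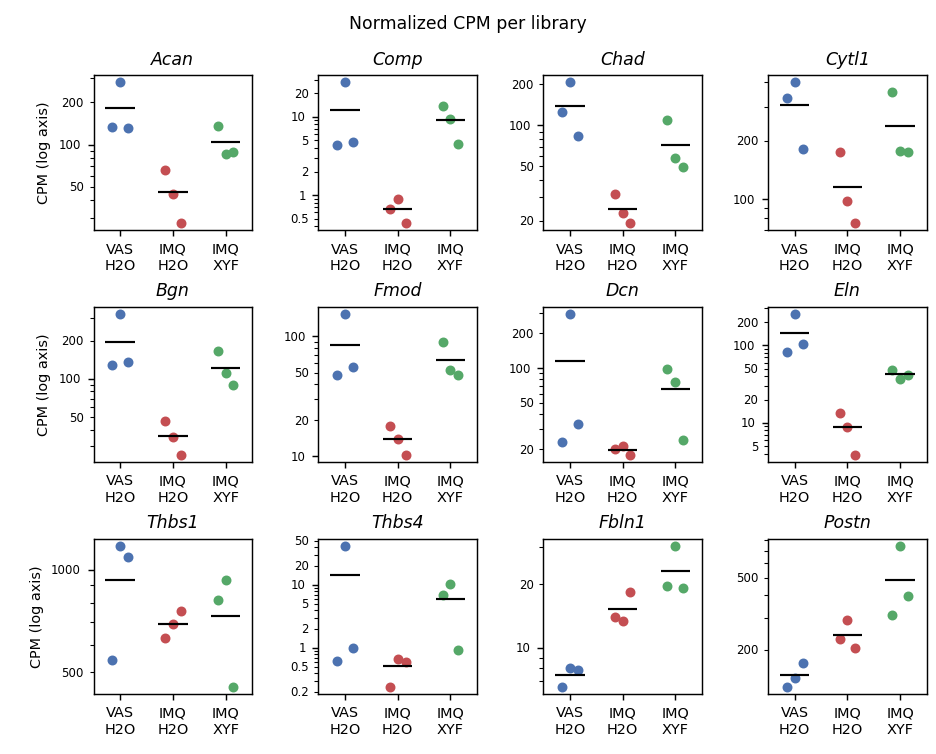
CPM of 12 matrix genes in each library on log axes, with a point per library and a line at the mean of the group (n = 3). The IMQ + H2O points lie below all others for Acan, Chad, Bgn, Fmod, Eln and Comp, the controls of Dcn and Thbs4 are split by replicate 2, and Fbln1 and Postn are lowest in VAS + H2O.

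The 4 thrombospondins differed from one another. Thbs1, an angiogenesis inhibitor and activator of TGF-beta that keratinocytes also secrete, had the second highest level per length, at 129 CPM per kb. It had 544, 1172 and 1089 CPM in VAS + H2O, 630.0, 690.4 and 755 in IMQ + H2O and 814, 930.3 and 454 in IMQ + XYF. Controls spanned the model libraries, and Thbs1 did not pass (log2 fold change -0.45, edgeR adjusted p = 0.278). Thbs2, its close relative in dermal fibroblasts, had 8.51, 15.3 and 20.5 CPM in VAS + H2O, 16.4, 17.7 and 13.9 in IMQ + H2O and 18.6, 30.3 and 22.8 in IMQ + XYF. Here too the groups overlapped (log2 fold change 0.11, edgeR adjusted p = 0.827).

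Thbs3 (chromosome 3, 89215180 to 89226837) was the thrombospondin that fell. It had 11, 15.9 and 10 CPM in VAS + H2O, 4.98, 3.69 and 3.47 in IMQ + H2O and 4.13, 4.84 and 5.27 in IMQ + XYF. Both imiquimod groups were below all controls. Thbs3 fell 3.07-fold (log2 fold change -1.62, standard error 0.24, edgeR adjusted p = 0.00992). Mtx1 on the opposite strand shares 6.59% of its exon bases, so that reads of the pair cannot be told apart if counting ignored the strand. The same limit holds for Fbn1 (20.1%), Prelp (9.68%), Prg4 (4.77%), Mfap4 (4.63%), Thbs1 (3.42%) and Eln (3.3%), and for smaller overlaps of other genes. Thbs4, a thrombospondin of tendon and muscle, had 0.614, 41.2 and 1 CPM in VAS + H2O, 0.242, 0.676 and 0.602 in IMQ + H2O and 6.91, 10.3 and 0.941 in IMQ + XYF. A single control library held nearly all its control signal. Its log2 fold change was -4.80 (standard error 1.70, edgeR adjusted p = 0.0870), and -0.65 without VAS + H2O replicate 2.

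Of the 7 elastic fibre genes, 5 were tested, 3 fell and 1 rose in IMQ + H2O against VAS + H2O. Eln (chromosome 5, 134702593 to 134747323, minus strand) encodes elastin, the core of the fibre. It had 81.2, 252 and 105 CPM in VAS + H2O, 13.4, 8.89 and 3.87 in IMQ + H2O and 48.5, 36.8 and 41.1 in IMQ + XYF. The 3 groups did not overlap at all. Eln fell 17.1-fold (log2 fold change -4.10, standard error 0.61, edgeR adjusted p = 0.00991) and kept a log2 fold change of -3.43 without VAS + H2O replicate 2. Fbn1, fibrillin 1, the backbone of microfibrils, had 27.8, 78.2 and 29.1 CPM in VAS + H2O, 11.7, 7.33 and 5.16 in IMQ + H2O and 27.0, 13.3 and 12.7 in IMQ + XYF. It fell 5.68-fold (log2 fold change -2.51, standard error 0.50, edgeR adjusted p = 0.0183), with -1.83 without VAS + H2O replicate 2, a call lost without IMQ + H2O replicate 2 or 3. An opposite-strand gene, Gm9913, shares 20.1% of its exon bases. Fbln5, a fibulin needed for elastic fibre assembly, fell 4.99-fold, and only the fit without VAS + H2O replicate 1 among those that left out a library kept this call. Its log2 fold change was -2.32, and -1.47 without VAS + H2O replicate 2.

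Fbln1 (chromosome 15, 85205949 to 85286535), a fibulin of elastic fibres and basement membranes, ran the other way. It had 6.56, 8.04 and 7.83 CPM in VAS + H2O, 14.0, 13.4 and 18.5 in IMQ + H2O and 19.6, 30.3 and 19.2 in IMQ + XYF. Its controls were close together and below every imiquimod library. Fbln1 rose 2.03-fold (log2 fold change 1.02, standard error 0.17, edgeR adjusted p = 0.0125), near the fold threshold, and dropped under it without VAS + H2O replicate 1 or IMQ + H2O replicate 3. Fbln2, a fibulin that also binds fibronectin, had 2.22, 8.11 and 1.35 CPM in VAS + H2O, 0.449, 1.46 and 0.996 in IMQ + H2O and 2.73, 3.52 and 1.05 in IMQ + XYF. Its groups overlapped and it did not pass (log2 fold change -2.01, edgeR adjusted p = 0.0981, and -0.88 without VAS + H2O replicate 2). Mfap4 and Mfap5, microfibril-associated glycoproteins, had at most 204 and 39 counts, both in VAS + H2O replicate 2, and were not tested here.

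The 7 adhesive and matricellular genes were mixed, with 4 that fell and 3 that did not pass. Sparc, the collagen-binding protein osteonectin, had 239, 563 and 259.7 CPM in VAS + H2O, 105, 66.8 and 68.0 in IMQ + H2O and 272, 161 and 156 in IMQ + XYF. The model libraries were below all others, and Sparc fell 4.49-fold (log2 fold change -2.17, standard error 0.38, edgeR adjusted p = 0.0133). Abi3bp, a matrix protein that binds collagen, had 94.2, 237 and 71.7 CPM in VAS + H2O, 32.5, 26.3 and 16.9 in IMQ + H2O and 76.6, 61.1 and 46.7 in IMQ + XYF. It fell 5.41-fold (log2 fold change -2.43, standard error 0.49, edgeR adjusted p = 0.0186), with -1.73 without VAS + H2O replicate 2, and lost the call without IMQ + H2O replicate 2 or 3. Fibronectin, Fn1, the ligand of several integrins, had 34.9, 80.9 and 20.9 CPM in VAS + H2O, 8.85, 10.3 and 8.68 in IMQ + H2O and 33.8, 23.4 and 16.4 in IMQ + XYF. The model group was again lowest without overlap. Fn1 fell 4.98-fold (log2 fold change -2.31, standard error 0.48, edgeR adjusted p = 0.0195), with -1.59 without VAS + H2O replicate 2, and the call was lost whichever IMQ + H2O library was left out. Tnxb, a tenascin that organises dermal collagen, fell 2.49-fold, and its call was kept only without IMQ + H2O replicate 2 among the fits that left out a library.

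Postn and Tnc, matricellular proteins known from wound repair, had their lowest mean in the controls. Postn (chromosome 3, 54361109 to 54391037), periostin, had 126, 141 and 169.8 CPM in VAS + H2O, 229.6, 294 and 204 in IMQ + H2O and 309, 744 and 398 in IMQ + XYF. The 3 groups did not overlap, in the order VAS + H2O, IMQ + H2O and IMQ + XYF. Under imiquimod alone periostin showed a log2 fold change of 0.72 (standard error 0.17, edgeR adjusted p = 0.0257), under the fold threshold. Tnc (chromosome 4, 63959785 to 64047015, minus strand), tenascin C, had 13.8, 16.8 and 21.8 CPM in VAS + H2O, 16.4, 43.8 and 64.6 in IMQ + H2O and 40.5, 31.2 and 55.8 in IMQ + XYF. IMQ + H2O replicate 1 lay within the controls, and Tnc did not pass (log2 fold change 1.24, standard error 0.46, edgeR adjusted p = 0.0958). Vcan, versican, the hyaluronan-binding proteoglycan of soft tissue, had 2.18 to 7.22 CPM over the 9 libraries and a log2 fold change of -0.32 (edgeR adjusted p = 0.691), although its neighbour Hapln1, 43.7 kb away, fell.

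**Figure D4:**
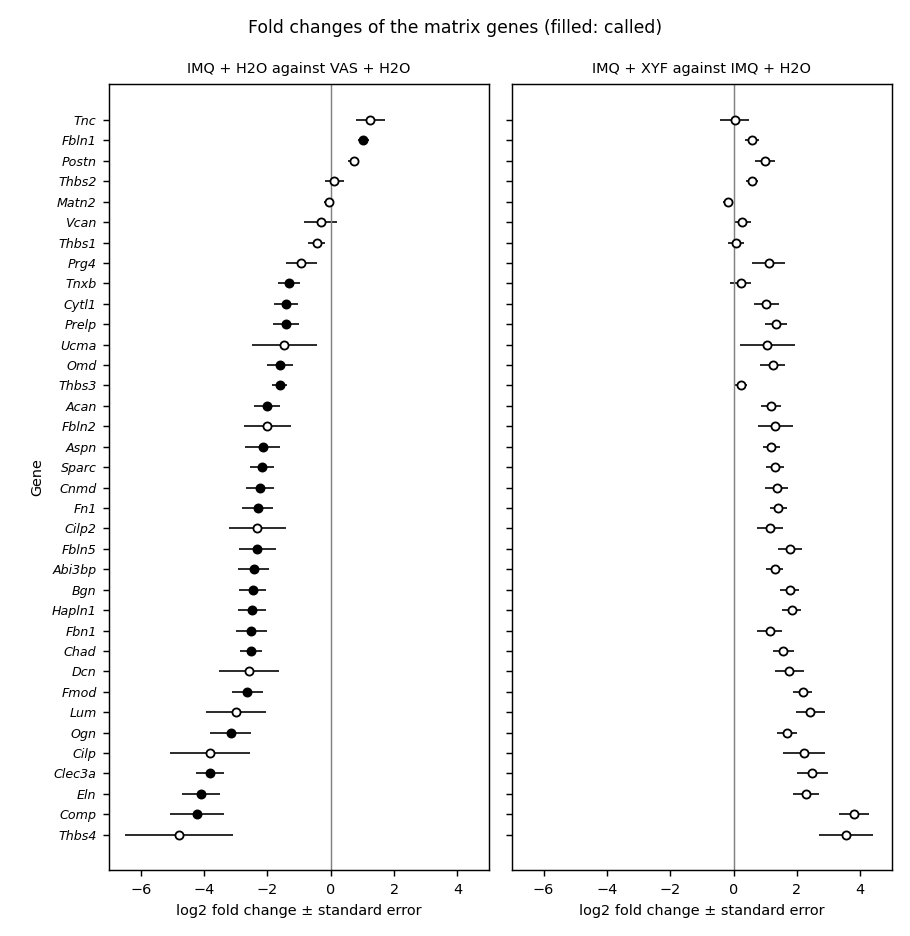
log2 fold changes with their standard errors for the matrix genes tested in IMQ + H2O against VAS + H2O (left) and in IMQ + XYF against IMQ + H2O (right), ordered by the left panel, with filled points for genes called by edgeR. On the left 22 points are filled, of which only Fbln1 lies above 0, and on the right none is filled although 35 of 36 lie above 0. Both panels use the same IMQ + H2O libraries.

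The second comparison, IMQ + XYF against IMQ + H2O, measured what the decoction changed under imiquimod. The levels of most cartilage, proteoglycan and elastic fibre genes were higher with XYF, but no gene of the 42 passed the edgeR test. Of the 36 tested, 0 were called, against 0.0281% (5 genes) of 17793. An unadjusted p under 0.05 was reached by 28 of the 36, and by 5.43% of all genes tested. The fitted log2 fold change was above 0 in 35 of the 36, Matn2 being the exception at -0.19, and in 50.1% of all genes tested. In 27 of the 36 every IMQ + XYF library lay above every IMQ + H2O library, which 5.99% of all genes tested showed. The median log2 fold change was 1.30, against 0.00058 over all genes tested, and lay between 1.10 and 1.52 with each library left out. DESeq2 called 19 of the genes, all higher, against 0.738% of genes called higher by DESeq2. With each library left out in turn, DESeq2 called between 10 and 19 of them, with 10 without IMQ + H2O replicate 3 and 12 without IMQ + XYF replicate 1. The IMQ + H2O libraries served in this comparison and in the first, so a low value in them enters both, and the values of the comparisons are placed side by side without a test of their relation.

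By role, the median log2 fold change with XYF was 1.36 for the cartilage genes tested, 1.73 for the leucine-rich proteoglycans, 1.32 for elastic fibre genes, 1.0 for adhesive and matricellular genes and 0.41 for thrombospondins. DESeq2 called 6, 7, 2, 3 and 1 of them, in that order. Among cartilage genes, Comp had a mean of 9.15 CPM with XYF and 0.660 without, the largest fitted difference of the 36 genes tested by edgeR (log2 fold change 3.80, standard error 0.48, edgeR adjusted p = 0.153, DESeq2 adjusted p = 1.56e-14). Hapln1 had 6.49 against 1.84 CPM (log2 fold change 1.83, edgeR adjusted p = 0.300) and Acan 103 against 45.8 CPM (1.19, edgeR adjusted p = 0.586). DESeq2 called both of these. Chad, Cnmd and Clec3a were the other cartilage genes that DESeq2 called, with log2 fold changes of 1.57, 1.36 and 2.49. Cytl1, at 1.04, and Prg4, at 1.11, were called by neither tool, and IMQ + XYF replicate 1 was the highest library of its group for both.

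Fmod had the smallest edgeR adjusted p among the proteoglycans, with 63.0 CPM with XYF and 14.0 without (log2 fold change 2.18, standard error 0.30, edgeR adjusted p = 0.187, DESeq2 adjusted p = 2.43e-12). Lum, Bgn, Ogn, Prelp, Omd and Aspn had log2 fold changes between 1.19 and 2.43 and were called by DESeq2. Dcn, at 1.76, was the proteoglycan that DESeq2 did not call, and its IMQ + XYF replicate 3 was near the model group at 24.1 CPM. In the elastic fibre, Eln had 42.1 against 8.72 CPM (log2 fold change 2.29, standard error 0.41, edgeR adjusted p = 0.352, DESeq2 adjusted p = 6.39e-08), and its XYF libraries were tightly grouped. Fbln5 was the other one that DESeq2 called, at 1.79. Among thrombospondins, DESeq2 called Thbs4 at 3.55, whose IMQ + XYF replicate 3 had 0.941 CPM against 6.91 and 10.3 in the other XYF libraries. Sparc, Abi3bp and Fn1 had log2 fold changes of 1.31, 1.30 and 1.41 and were called by DESeq2, whereas Tnc and Tnxb had 0.03 and 0.22. Postn had a mean of 484 CPM with XYF and 242 without (log2 fold change 1.0, edgeR adjusted p = 0.751), with IMQ + XYF replicate 2 at 744 CPM.

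Marker lists were read beside these values. With XYF, 2 of 12 chondrocyte markers rose against IMQ + H2O, Col9a1 (log2 fold change 2.26) and Col11a2 (1.82), against 0.0281% of all genes called. Both calls were lost without IMQ + H2O replicate 1 or 2, and whichever IMQ + XYF library was left out. Of the fibroblast markers, 0 of 13 passed while 8 had an unadjusted p under 0.05, against 5.43% of all genes tested. Fibroblast sums were 169.5, 123 and 88.8 CPM in the IMQ + XYF libraries, and replicate 1 was also the highest and replicate 3 the lowest for 6 of the 8 leucine-rich proteoglycans. The exceptions were Ogn, highest in replicate 2, and Omd, lowest in replicate 2. The same order of replicates held for 5 of the 13 cartilage genes with a count in these libraries. It held for 4 of 7 elastic fibre and 4 of 7 adhesive or matricellular genes, and for 0 of 4 thrombospondins and 0 of 2 other matrilins. Skeletal muscle sums were 20.2, 86.8 and 8.09 CPM, with replicate 2 highest. The part of these tissues in the values of the matrix genes was not tested.

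**Figure D5:**
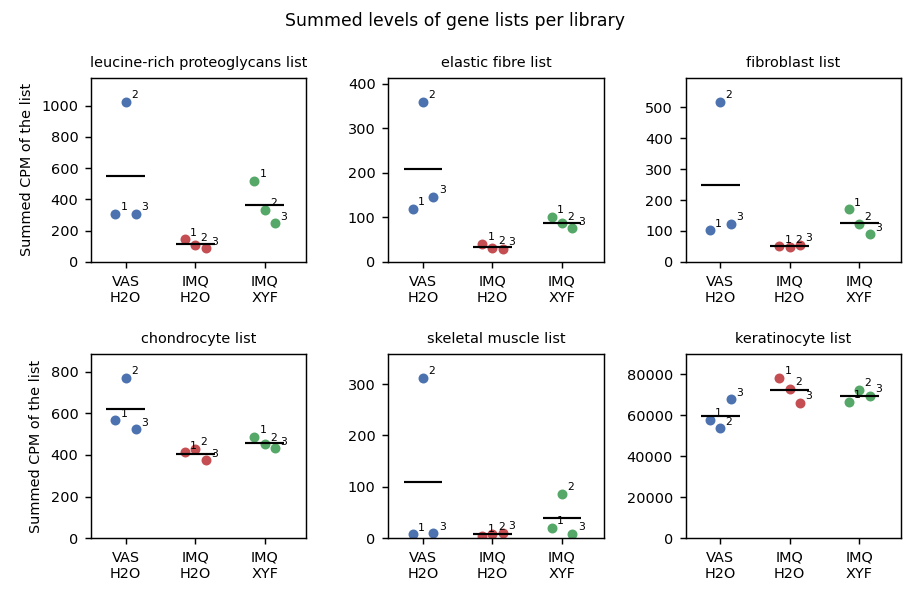
Summed CPM per library for 2 groups of the matrix genes and 4 marker lists, with replicate numbers beside the points and a line at each group mean (n = 3). The proteoglycan, elastic fibre, fibroblast and skeletal muscle sums are highest in VAS + H2O replicate 2, where the keratinocyte sum is lowest at 53578 CPM.

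The last comparison, IMQ + XYF against VAS + H2O, set the treated mice against the controls. Of 37 genes tested, 3 rose and 3 fell, against 7.64% of 17954 genes called, 4.58% higher and 3.05% lower. Fbln1, Tnc and Postn rose, with log2 fold changes of 1.62 (standard error 0.21, edgeR adjusted p = 0.00268), 1.28 (0.25, edgeR adjusted p = 0.0109) and 1.73 (0.32, edgeR adjusted p = 0.00930). Thbs3, Eln and Tnxb fell, with log2 fold changes of -1.37 (standard error 0.21, edgeR adjusted p = 0.00502), -1.79 (0.42, edgeR adjusted p = 0.0202, and -1.14 without VAS + H2O replicate 2) and -1.09 (0.27, edgeR adjusted p = 0.0264). Thbs3, Fbln1, Tnc and Postn were called in all 6 fits that left out a library. Eln lost the call whichever IMQ + XYF library was left out, and Tnxb lost it without VAS + H2O replicate 2 or 3 or IMQ + XYF replicate 1 or 3.

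No cartilage gene or leucine-rich proteoglycan was called in that comparison by edgeR, and 3 and 1 of them had an unadjusted p under 0.05, against 41.3% of all genes tested. DESeq2, which called 7.93% of all genes there, called Clec3a lower, at a log2 fold change of -1.32, and edgeR did so without IMQ + XYF replicate 1. Matn3, too low for the edgeR test here, was called lower without IMQ + XYF replicate 2 (edgeR adjusted p = 0.0460). Medians were -0.80 for the cartilage genes and -0.61 for the proteoglycans. A p that misses the threshold does not show that treated and control levels were alike, and the controls were uneven here. The median over the 37 genes was -0.68, and 0.06 without VAS + H2O replicate 2. Without that library the fitted direction turned for Comp (from -0.41 to 1.0), Dcn (from -0.81 to 1.23), Lum (from -0.54 to 1.27) and Thbs4 (from -1.23 to 2.92), none of them called in either fit. Mfap4, tested in this comparison alone, turned from -2.06 to 1.04.

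Related genes outside the 42 were counted from lists of the same matrix systems. Of 12 other elastic fibre and microfibril genes tested, 3 fell in IMQ + H2O against VAS + H2O, with log2 fold changes of -1.51 for Ltbp2, -1.67 for Fbln7 and -2.34 for Fbn2 (-1.57 without VAS + H2O replicate 2), another fibrillin. Of 5 other leucine-rich matrix genes tested, 2 fell, Ecm2 (-2.13) and Chadl (-1.16), a relative of chondroadherin. Of 12 other matricellular and basement membrane genes tested, 4 fell, with Nid2 (-1.97, and -1.36 without VAS + H2O replicate 2), a nidogen of basement membrane, Spock2 (-1.47) and Smoc2 (-1.05) the 3 of smallest adjusted p. Over all genes tested in that comparison, 4.04% were called lower. Without VAS + H2O replicate 2 the counts of the 3 lists were 3, 1 and 1, against 299 of 18608 genes tested called lower. The medians of the 3 lists were -1.16, -1.06 and -0.78, against -2.20 for the 36 genes tested. None of these related genes was called in IMQ + XYF against IMQ + H2O by edgeR, and 4, 1 and 6 of them had an unadjusted p under 0.05, against 5.43% of all genes tested.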

How the data were processed

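Total RNA of 9 epidermal libraries was analysed. TruSeq libraries were prepared by the authors and sequenced on an Illumina HiSeq instrument. They aligned reads with STAR (2.5 in the submitters' processing notes) to GRCm38 with Ensembl release 90 annotation, and deposited whole-number counts per gene without normalization. The counting tool and strand setting are not given in the sources used here. Groups were taken from the sample titles. Each pair of groups was fitted on its 6 libraries with edgeR 4.0.16 in R 4.3.3 (TMM, filterByExpr, quasi-likelihood test), with Benjamini-Hochberg adjustment over all genes tested. Calls needed an adjusted p no larger than 0.05 together with a log2 fold change of 1 or more in size. CPM used TMM library sizes over 18492 genes. DESeq2 1.42.0 was an alternative, beside RLE size factors, no filter, at least 10 counts in every library, 1 fit of all 9 libraries, a replicate block, the adjusted p alone and each library left out. The fits were tested on simulated data. The floor of 3 counts covers counting error only. Each standard error was the absolute log2 fold change divided by the square root of the F statistic of the edgeR test. That statistic includes the estimated spread between libraries. Libraries of a group differed beyond counting noise (chi-square per gene 25.1 to 80.4). Gene positions are from GENCODE M21 on GRCm38 and promoters from RefSeq on GRCm38.p6.

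The 42 genes, the marker lists and the related lists were chosen with earlier results of these data known. All 42 are named. Values per library were given for the 4 genes of each role with the highest mean CPM over 9 libraries and for the 2 with the largest change among those called in IMQ + H2O against VAS + H2O. From each other list at most 3 called genes of smallest adjusted p are named per comparison, beyond which Pdgfrb and genes that illustrate a list were added after their values were seen. The marker lists also covered tendon, vessel, smooth muscle, fat, Schwann, pigment and blood cells.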

Additional observations from a re-analysis of the deposited data

How the results depend on the processing

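In IMQ + H2O against VAS + H2O the count of called genes among the 42 was 22, and 27 with DESeq2, 22 with RLE size factors, 20 without the filter, 21 with at least 10 counts in every library, 23 with all 9 libraries in 1 fit, 23 with the adjusted p alone and 9 to 22 with each library left out. In IMQ + XYF against IMQ + H2O it was 0, and 19 with DESeq2, while each of the other alternatives gave 0, as did each fit of edgeR that left out a library, and DESeq2 with each library left out, chosen after seeing the data, gave 18, 13 and 10 without IMQ + H2O replicates 1, 2 and 3 and 12, 15 and 19 without IMQ + XYF replicates 1, 2 and 3. The cause of the gap between the tools was not tested. In IMQ + XYF against VAS + H2O it was 6, and 4 to 7 over the alternatives. Over all genes, the adjusted p alone raised the calls from 1383 to 3986 and from 1371 to 5152 in the comparisons with VAS + H2O, and fits that left out a library gave 711 to 1314 and 996 to 1350. For IMQ + XYF against IMQ + H2O, 5 calls became 129 with DESeq2, 1 with all 9 libraries in 1 fit, and 0 to 5 with a library left out.

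The median log2 fold change over the genes tested, a summary chosen after seeing the data, was -2.42 to -1.23 with each library left out for IMQ + H2O against VAS + H2O, 1.10 to 1.52 in IMQ + XYF against IMQ + H2O, and -1.01 to 0.06 in IMQ + XYF against VAS + H2O. Genes with a change of sign in such fits had these ranges on the log2 scale. Between IMQ + H2O and VAS + H2O they were Thbs2 (-0.18 to 0.45), Ucma (-2.36 to 0.21), Vcan (-0.63 to 0.49) and Matn2 (-0.19 to 0.079). Between IMQ + XYF and IMQ + H2O they were Tnc (-0.35 to 0.49, with -0.22 in DESeq2 without IMQ + XYF replicate 3), Tnxb (-0.0071 to 0.64, and -0.0090 at the lowest with DESeq2) and Thbs1 (-0.12 to 0.34, with -0.0044 in DESeq2 without IMQ + XYF replicate 1). Between IMQ + XYF and VAS + H2O they were Comp (-0.81 to 1.0), Ucma (-0.84 to 1.28), Cilp (-2.62 to 1.12), Cilp2 (-1.58 to 0.56), Fmod (-0.76 to 0.28), Prelp (-0.46 to 0.46), Omd (-0.74 to 0.064), Dcn (-1.29 to 1.23), Lum (-1.03 to 1.27), Thbs4 (-1.81 to 2.92), Mfap4 (-2.62 to 1.04), Fbln2 (-1.06 to 0.44), Fbln5 (-0.86 to 0.31), Vcan (-0.32 to 0.77) and Prg4 (-0.64 to 0.80). None of these was called in a fit that turned its sign. Vcan without VAS + H2O replicate 2 passed the adjusted p (edgeR adjusted p = 0.0376) but, at 0.77, not the fold threshold.

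Libraries that share a replicate number did not deviate together, with correlations of -0.168 to 0.136, so the numbers were not taken as pairs. With the replicate number as a block, the counts of called genes were 20, 0 and 4 in the 3 comparisons, and Lum (0.035), Thbs4 (0.26) and Vcan (0.20) turned sign in IMQ + XYF against VAS + H2O without a call. Depth limited Matn3, Matn4, Scrg1, Mfap4 and Mfap5, whose libraries held between 0 and 204 counts, and a p with 3 libraries in a group rests on few degrees of freedom.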

Other observations

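Genes that make the sugar chains of these proteoglycans and the hyaluronan they bind were read from lists outside the 42 genes. In IMQ + H2O against VAS + H2O, 2 of 19 chondroitin sulfate synthesis genes tested fell (10.5%, against 7.68% of all genes called), Chst11 (log2 fold change -1.49, standard error 0.33, edgeR adjusted p = 0.0227), a sulfotransferase, and Xylt1 (-1.24, 0.36, edgeR adjusted p = 0.0480), which starts the chain. Neither was called without VAS + H2O replicate 2, and the median of the list was -0.22. Of 11 hyaluronan genes tested, 3 were called higher and none lower, against 3.64% of all genes called higher. The list was not uniform, with log2 fold changes above 0 in 8 genes and below 0 in 3. The lowest was -1.91 and the median 0.58. Has3, a hyaluronan synthase, had 3.03, 3.31 and 4.04 CPM in VAS + H2O, 42.9, 95.1 and 163 in IMQ + H2O and 86.2, 71.3 and 94.3 in IMQ + XYF. Both imiquimod groups were above all controls. Has3 rose 28.8-fold (log2 fold change 4.85, standard error 0.51, edgeR adjusted p = 0.00575). Has2, another synthase, rose 4.01-fold, and Cd44, the main hyaluronan receptor, rose 2.61-fold. With XYF against IMQ + H2O no gene of either list was called by edgeR, with 2 and 1 at an unadjusted p under 0.05, against 5.43% of all genes tested. In IMQ + XYF against VAS + H2O the same 3 hyaluronan genes rose, with log2 fold changes of 4.6 for Has3, 2.28 for Has2 and 1.36 for Cd44. Of the chondroitin sulfate list only Chsy3 fell (-1.22), a call lost without VAS + H2O replicate 2. Chsy3 was low throughout, at 0.444, 0.546 and 0.488 CPM in VAS + H2O and 0.236, 0.154 and 0.228 in IMQ + XYF. The floor of 3 counts was 0.0471 to 0.104 CPM.

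The other marker lists had these summed levels and calls in IMQ + H2O against VAS + H2O. Of the tenocyte markers, Egr1, an early response gene of many cell types, had 1424 to 2197 CPM in VAS + H2O, whereas Scx and Tnmd, the tendon genes proper, had at most 1.91 and 1.94 CPM there. None of the 4 tested was called by edgeR, with 2 at an unadjusted p under 0.05, and Tnmd had a log2 fold change of -2.71. Smooth muscle and pericyte markers summed to 49.1 to 109 and 21.3 to 32.3 CPM, and Cspg4 fell. Endothelial (6.11 to 13.7 and 5.22 to 8.84 CPM), adipocyte (3.28 to 8.47 and 4.56 to 6.39), melanocyte (26.3 to 46.4 and 21.2 to 34.1) and skeletal muscle markers (7.28 to 312 and 4.80 to 10.7) held no called gene, although 4 skeletal muscle and 2 melanocyte markers had an unadjusted p under 0.05. Over all genes, 3986 of 18009 tested reached even an adjusted p of at most 0.05 in this comparison, so unadjusted values under 0.05 were common. The median log2 fold change of the 6 skeletal muscle markers tested was -3.81, and -0.30 without VAS + H2O replicate 2. Of 5 Schwann cell markers, Ncmap fell, a call lost without VAS + H2O replicate 2. Of 6 neutrophil and monocyte markers tested, 4 rose, against 3.64% of all genes tested called higher. The sums of this list went from 18.0 to 20.7 CPM in VAS + H2O to 285 to 2188 in IMQ + H2O. The sums were mostly S100a8 and S100a9, which keratinocytes also make, and Cxcr2. Csf3r had 0.173, 0.858 and 38.02 CPM in IMQ + H2O, and at most 0.0911 in VAS + H2O. Itgam had 1.83, 6.19 and 19.29 CPM in IMQ + H2O, and up to 2.55 in VAS + H2O. Lyz2 was likewise highest in IMQ + H2O replicate 3. Ly6g and Ccr2, the lowest of the list in IMQ + H2O, had at most 0.509 and 0.417 CPM there. The cells behind these values were not tested. The 2188 was IMQ + H2O replicate 3 alone, against 285 and 368 in the others, and that library differed from them by a chi-square per gene of 80.4 and 76.8, against 25.1 between these. Of 8 Langerhans cell and T cell markers, Thy1 rose and Cd3d fell, the latter not without VAS + H2O replicate 2.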
